A study of Homo sapiens with 12 samples.

Results

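Long noncoding RNA genes, namely MALAT1, NEAT1, TUG1, NORAD, KCNQ1OT1 and OIP5-AS1, were followed through RNA of 80S ribosome fractions and of RPL12 immunoprecipitates. They were chosen by Ensembl identifier, as 6 of the 57820 gene identifiers in the count tables. The rule uses no measured value, but the choice was made with earlier results of these data known. The identifiers were ENSG00000251562.3 for MALAT1, ENSG00000245532.4 for NEAT1, ENSG00000253352.4 for TUG1, ENSG00000260032.1 for NORAD, ENSG00000269821.1 for KCNQ1OT1 and ENSG00000247556.2 for OIP5-AS1. All 6 passed the filter on low counts. RefSeq classes 5 of them as lncRNA genes, but lists TUG1 as protein coding, with 6 coding and 2 noncoding transcripts, so the label "noncoding" holds for 5 of the 6 in that annotation.

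The libraries came from HEK293 Flp-In T-Rex cells, a human embryonic kidney line, made to overexpress FLAG/HA-tagged RPL12 from a stable insertion. RPL12 is a protein of the stalk base of the large ribosomal subunit. The tagged protein carried S38A (alanine, not phosphorylatable, in place of the serine), S38D (aspartate, used to imitate phosphorylation) or the wild-type (WT) sequence. Per the labels' protocols, hygromycin selection gave monoclonal colonies, so form and clone may coincide, and the host cells keep their own RPL12. An anti-FLAG immunoprecipitate (IP) and an 80S input were sequenced from each of 2 fractions per form, after cycloheximide was added to the pooled 80S fraction, which makes S38A IP, S38D IP, WT IP, S38A input, S38D input and WT input groups of 2 libraries. Cells without the tag gave no IP library, so RNA held by the beads alone cannot be told apart from RNA recovered through RPL12.

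Long noncoding RNAs are transcribed like mRNAs but mostly not translated, and they differ in where they reside. MALAT1 and NEAT1 are nuclear: MALAT1 gathers in nuclear speckles, and NEAT1 is the scaffold of paraspeckles. KCNQ1OT1 is transcribed antisense to KCNQ1 and silences imprinted neighbours on its own chromosome. NORAD and OIP5-AS1 are largely cytoplasmic: NORAD binds Pumilio proteins, and OIP5-AS1, also called Cyrano, carries a site for the microRNA miR-7. TUG1 is found in both compartments. MALAT1 and the long form of NEAT1 end in a folded structure rather than an added poly(A) tail, and the labels give the molecule as polyadenylated RNA. An 80S fraction holds single ribosomes and any other complex that sediments with them.

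IP libraries held 3186164 to 7430881 gene counts and input libraries 7434431 to 8723130. The first WT IP library was the shallowest, and ERCC spike-in RNA took 5.43% of its counts, the highest share, against 1.44% to 5.18% in the other IP libraries and 0.116% to 0.484% in inputs. The 6 RNAs together took 0.323% to 0.435% of gene counts in IP and 0.36% to 0.43% in input. Separate cultures are not named for the replicates, so the p-values speak of the spread among these libraries alone, and that spread may be technical. Levels are CPM after TMM scaling. CPM is a share of a library, so more of an RNA and less of all others cannot be told apart. Transcript lengths are not given in the files, so levels are compared between libraries and not between genes.

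The first question was whether IP of tagged RPL12 recovered these RNAs in proportion to the 80S fraction. Over the 3 lines, 2 of the 6 differed between IP and input: MALAT1 rose 1.71-fold and OIP5-AS1 fell to 0.801-fold. NEAT1, NORAD, TUG1 and KCNQ1OT1 did not pass, at 1.1-fold, 1.08-fold, 0.895-fold and 1.05-fold. Among all 16920 genes 31.8% were called, 15.9% higher and 15.9% lower (edgeR quasi-likelihood test, adjusted p under 0.05), so 2 of 6, 1 in each direction, is close to the background. The median log2 change was 0.09 for the 6 RNAs and -0.04 for all genes.

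MALAT1, the nuclear speckle RNA, was at 304 and 381 CPM in S38A IP, 511 and 482 in S38D IP and 865 and 247 in WT IP. Its inputs were at 222 and 349 CPM in S38A, 309 and 269 in S38D, and 250.1 and 204 in WT. All 6 fractions had more MALAT1 in IP than in their own input, but the excess was uneven. It ran from 1.09-fold in the second S38A fraction to 3.46-fold in the first WT fraction, and the IP and input ranges overlapped. How many of all genes changed in 1 direction in all 6 fractions was not counted, here or for the RNAs below. Over the 3 lines the log2 change was 0.78 (SE 0.24, edgeR adjusted p = 0.0247), at percentile 95.4 of all genes. Without the first WT IP library it was 0.38 (SE 0.13, edgeR adjusted p = 0.0519), less than that by over 1.5 times. The call was also lost without the second WT input, the first S38A input, the second S38D input, the second S38A IP or the first S38D IP library, with adjusted p up to 0.0703 and changes of 0.68 to 0.76. Blocked by fraction the MALAT1 change was 0.71 (edgeR adjusted p = 0.00346), in a fit that called 46.5% of all genes.

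OIP5-AS1, the RNA known as Cyrano, had 459 and 486 CPM in S38A IP, 494 and 458 in S38D IP and 314 and 431 in WT IP. The inputs stood at 523 and 600.0 CPM in S38A, 531 and 532 in S38D, and 519 and 577 in WT. Every IP library lay below every input library. Such a gap downward was found for 6.86% of all genes, and OIP5-AS1 was the single member that showed one, with none showing the upward gap found for 6.15%. The log2 change was -0.32 (SE 0.10, edgeR adjusted p = 0.0326), with IP at 0.606 to 0.931 of input within the 6 fractions. OIP5-AS1 lost its call on omission of the second WT input, the second S38A input, either S38D input, the first S38A IP or either S38D IP library, with changes of -0.29 to -0.34 and adjusted p up to 0.0954. Blocked by fraction the change was -0.33 (edgeR adjusted p = 0.00174), in a fit that called 46.5% of all genes.

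TUG1 was lower in IP than in its own input in 6 of 6 fractions, at 0.788 to 0.975 of input, again without a share of all genes to set beside it. It had 407 and 431 CPM in S38A IP, 379 and 349 in S38D IP and 265 and 246 in WT IP, beside 417 and 475 in S38A input, 396 and 378 in S38D input and 317 and 312 in WT input. Both WT groups lay below all S38A and S38D libraries, and the ranges of IP and input overlapped. That place of WT was picked out after the values were seen, and the share of all genes with it was not counted. The log2 change was -0.16 (SE 0.09, edgeR adjusted p = 0.185) and did not pass, while blocking on the fraction gave a passing edgeR adjusted p = 0.0402, in a fit that called 46.5% of all genes.

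NEAT1, the paraspeckle scaffold, had 1279 and 1067 CPM in S38A IP, 1603 and 2273 in S38D IP and 1857 and 1629 in WT IP. Inputs were at 1213 and 1113 CPM in S38A, 1454 and 1748 in S38D and 1545 and 1697 in WT. Within fractions IP lay between 0.959 and 1.3 of input and was higher in 4 of 6. The log2 change of 0.13 (SE 0.12, edgeR adjusted p = 0.451) did not pass.

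NORAD, the Pumilio-binding RNA, had 1018 and 763 CPM in S38A IP, 1264 and 1353 in S38D IP and 1071 and 976 in WT IP. Its inputs were at 933 and 813 CPM in S38A, 1041 and 1069.8 in S38D and 1056 and 983 in WT. IP was higher in 4 of 6 fractions, at 0.939 to 1.26 of input, and the log2 change was 0.12 (SE 0.11, edgeR adjusted p = 0.452). NEAT1, mainly nuclear, and NORAD, mainly cytoplasmic, had fitted changes within 1 SE of each other, and the count ratio of the pair changed one way in 3 fractions and the other way in 3.

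KCNQ1OT1, the imprinted antisense RNA, was barely detected, with 4 to 30 counts in IP and 19 to 32 in input libraries. It had 1.98 and 2.58 CPM in S38A IP, 2.73 and 3.06 in S38D IP and 1.52 and 6.5 in WT IP. Inputs were at 2.01 and 2.78 CPM in S38A, 2.74 and 2.85 in S38D, and 3.54 and 3.92 in WT. The 2 WT IP libraries lay on either side of all others. The lower of these rests on 4 counts (exact Poisson 95% interval 1.09 to 10.2 counts) and the higher on 30 (20.2 to 42.8), and such intervals cover counting error only. The log2 change of 0.07 (SE 0.30, edgeR adjusted p = 0.889) did not pass. Its sign and size rest on the WT IP libraries, with 0.25 without the first and -0.44 without the second (edgeR adjusted p = 0.439 and 0.249).

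**Figure D1:**
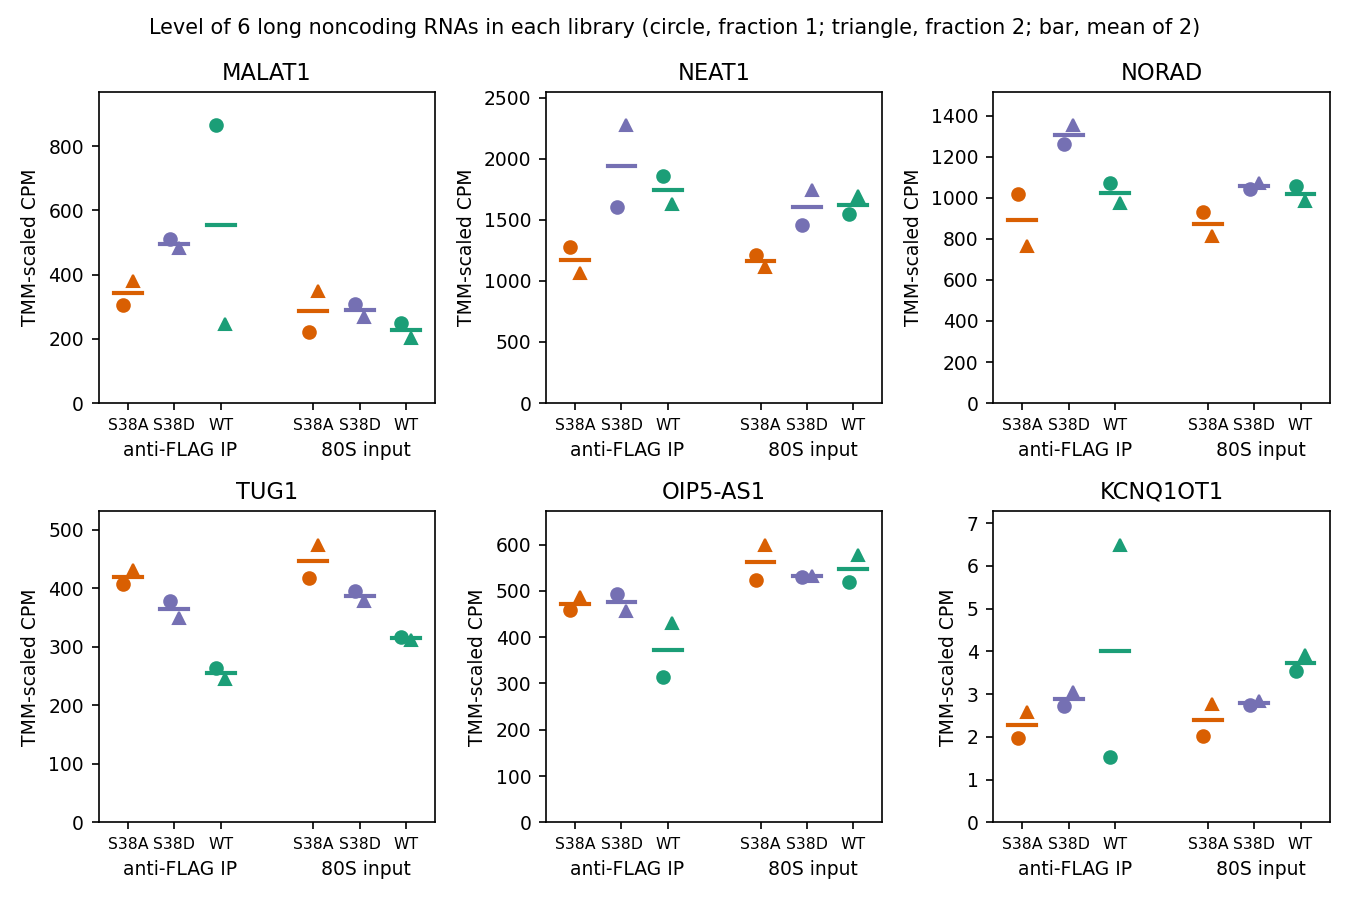
TMM-scaled CPM (y axis, starting at 0) of each RNA in the 12 libraries, with IP groups left and 80S input groups right; circles are fraction 1, triangles fraction 2 and bars the mean of 2. The first WT IP library stands at 865 CPM of MALAT1, every IP library of OIP5-AS1 lies below every input, and TUG1 is ordered S38A, S38D, WT in both kinds of library.

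**Figure D2:**
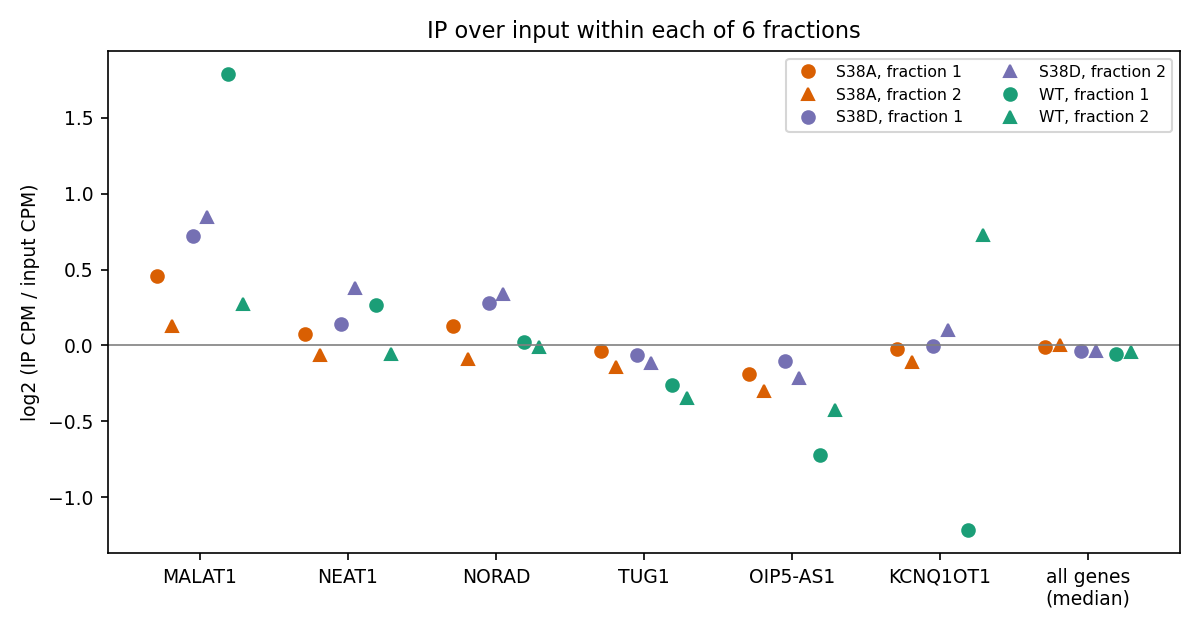
Log2 ratio of IP CPM to input CPM (y axis) within each of the 6 fractions for each RNA, with the median over all tested genes at the right. MALAT1 lies above 0 and OIP5-AS1 and TUG1 below 0 in all 6, and the 2 WT fractions of KCNQ1OT1 lie on opposite sides.

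The scale of the libraries sets these signs in part. With total gene counts in place of TMM, the median change of all genes was -0.25 rather than -0.04. NEAT1 and NORAD then had log2 changes of -0.09 and -0.11, and KCNQ1OT1 -0.14, so the sign of these 3 flipped. MALAT1 stayed positive at 0.55 but did not pass (edgeR adjusted p = 0.069), while OIP5-AS1 at -0.53 and TUG1 at -0.38 passed (adjusted p = 0.00246 and 0.0045), where 38.7% of all genes were called. Relative to the median of all genes the changes were 0.82 for MALAT1 with TMM and 0.80 with total counts, and -0.28 in both for OIP5-AS1. A change of scale shifts all genes by nearly the same amount, so this agreement is largely built in and tests nothing. The abundance of a gene went with its change too. All but KCNQ1OT1 were in the most abundant quartile, whose median change was 0.17, and KCNQ1OT1 was in the least abundant, at -0.16. Of the RNAs in the most abundant quartile MALAT1 lay above its median, while NEAT1, NORAD, TUG1 and OIP5-AS1 lay below it.

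Ratios between 2 RNAs of the same library need no scaling. MALAT1 counts per OIP5-AS1 count were 0.663 and 0.784 in S38A IP, 1.03 and 1.05 in S38D IP and 2.75 and 0.573 in WT IP. In the inputs they were 0.424 and 0.582 in S38A, 0.583 and 0.505 in S38D and 0.482 and 0.353 in WT. The ratio was higher in IP than in the input of the same fraction in 6 of 6, by 1.35-fold to 5.71-fold with a median of 1.70-fold. MALAT1 also gained on NEAT1 in 6 of 6 fractions, with a median of 1.34-fold, and on NORAD, with a median of 1.31-fold. OIP5-AS1 lost ground to NORAD in 6 of 6, with NORAD over OIP5-AS1 at a median of 1.32-fold. Of the 15 pairs 9 moved one way in all 6 fractions, and the 5 pairs with KCNQ1OT1 did not. Each of the 9 holds MALAT1, TUG1 or OIP5-AS1, whose own IP over input went one way in all 6 fractions. The share among pairs of other genes was not counted, so whether 9 of 15 is unusual is not known. Pairs share members and libraries, so these are descriptions without a test.

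**Figure D3:**
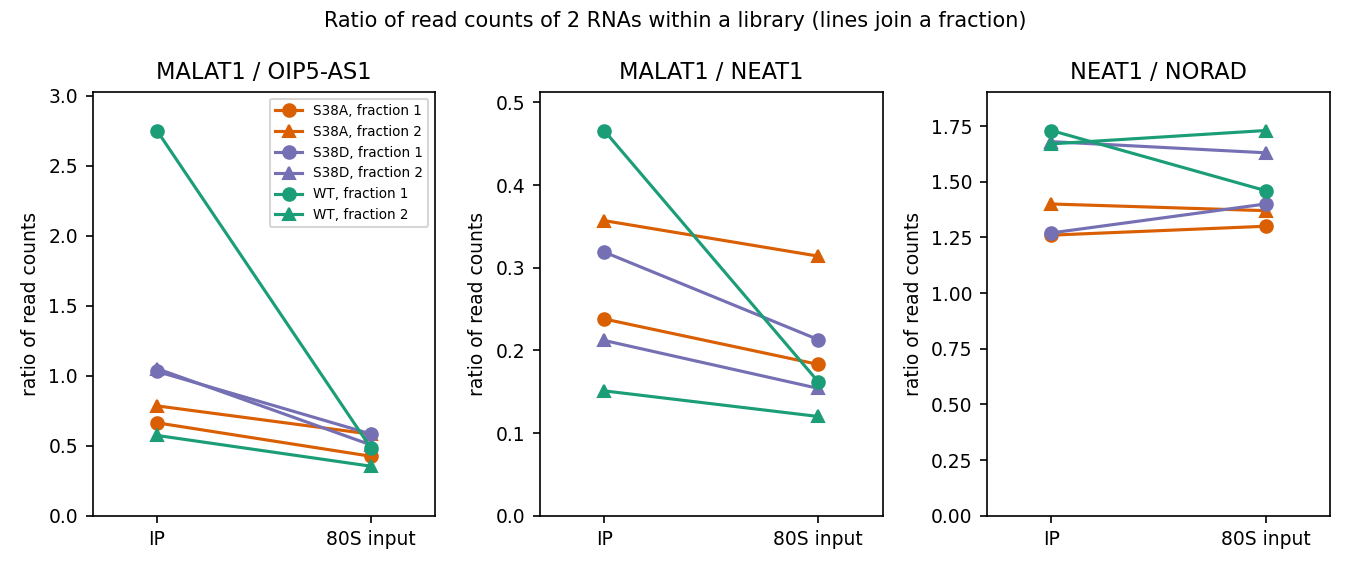
Ratio of the read counts of 2 RNAs (y axis, starting at 0) in the IP and input libraries of each fraction, joined by a line. MALAT1 over OIP5-AS1 and MALAT1 over NEAT1 are higher in IP in 6 of 6 fractions, and NEAT1 over NORAD in 3 of 6.

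Each line was then taken by itself in the same fit. In S38A the log2 changes from input to IP lay between -0.25 for OIP5-AS1 and 0.26 for MALAT1, and 0 of 6 passed. There were 0 at unadjusted p under 0.05, against 15.2% of all genes, 0 in DESeq2, which called 2.74%, and 0 in voom, which called 0%. With the fraction as a block there were 0, where 12.3% of all genes were called. Without the block edgeR called 0% of all genes in this line. The IP libraries lay below both inputs for 1 RNA, OIP5-AS1, and above them for 0, against 24.1% and 24.7% of all genes. MALAT1 was at 343 ± 54.4 CPM in S38A IP and 285 ± 90.3 in S38A input (SD, n = 2 each), so the inputs lay farther apart than the groups.

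In S38D, MALAT1 averaged 497 ± 20.1 CPM in IP and 289 ± 28.7 in input (SD, n = 2 each), the most even gain among the lines. The log2 change was 0.78 (SE 0.41, edgeR adjusted p = 0.291). NORAD averaged 1308 ± 63.3 CPM in IP of this line, beside 1055 ± 20.3 in its input (SD, n = 2 each), a log2 change of 0.31 (SE 0.19, adjusted p = 0.36), and blocking on the fraction gave edgeR adjusted p = 0.0441. Of the 6, 0 passed in edgeR, which called 4.87% of all genes (3.13% higher, 1.74% lower). At unadjusted p under 0.05 there were 0, against 22.1% of all genes. In DESeq2, which called 10% of all genes, 0 passed, and in voom, which called 10.9%, 0 passed. With the block 1 passed, where 20% of all genes were called. MALAT1 and NORAD lay above both inputs without overlap and OIP5-AS1 below, where 25.7% of all genes showed the upward and 29.7% the downward gap. With only the 4 S38D libraries the MALAT1 change was 0.79 (SE 0.11, edgeR adjusted p = 0.014), in a fit that called 9.83% of all genes. With 1 of the 12 libraries left out the MALAT1 change in S38D was 0.68 to 0.89, and it was 0.76 without the first WT IP library and 0.78 without the second.

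In WT, MALAT1 averaged 556 ± 437 CPM in IP and 227 ± 32.8 in input (SD, n = 2 each), and OIP5-AS1 372 ± 82.2 in IP and 548 ± 41.0 in input. The log2 changes were 1.29 (SE 0.42, edgeR adjusted p = 0.0638) and -0.55 (SE 0.18, adjusted p = 0.0666). Neither passed, and 0 of 6 did in edgeR, which called 11.2% of all genes (5.77% higher, 5.48% lower). By other counts 2 were at unadjusted p under 0.05, as were 27.7% of all genes. In DESeq2, which called 15.5% of all genes, 1 passed (OIP5-AS1), and in voom, which called 3.53%, 0 passed. With the fraction as a block 3 passed, against 28.5% of all genes: MALAT1 at 1.04 (adjusted p = 0.0168), TUG1 at -0.30 (0.0438) and OIP5-AS1 at -0.57 (0.00424). TUG1 and OIP5-AS1 lay below both inputs without overlap, as 30.5% of all genes did, and 0 of 6 lay above them, as 24% of all genes did. Both values depended on which WT IP library was kept. MALAT1 was at 0.14 without the first and 1.93 without the second (edgeR adjusted p = 0.826 and 0.000472). OIP5-AS1 was at -0.33 without the first (adjusted p = 0.314) and at -0.81 without the second, where it passed (adjusted p = 0.0105) and 16.4% of all genes were called.

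**Figure D4:**
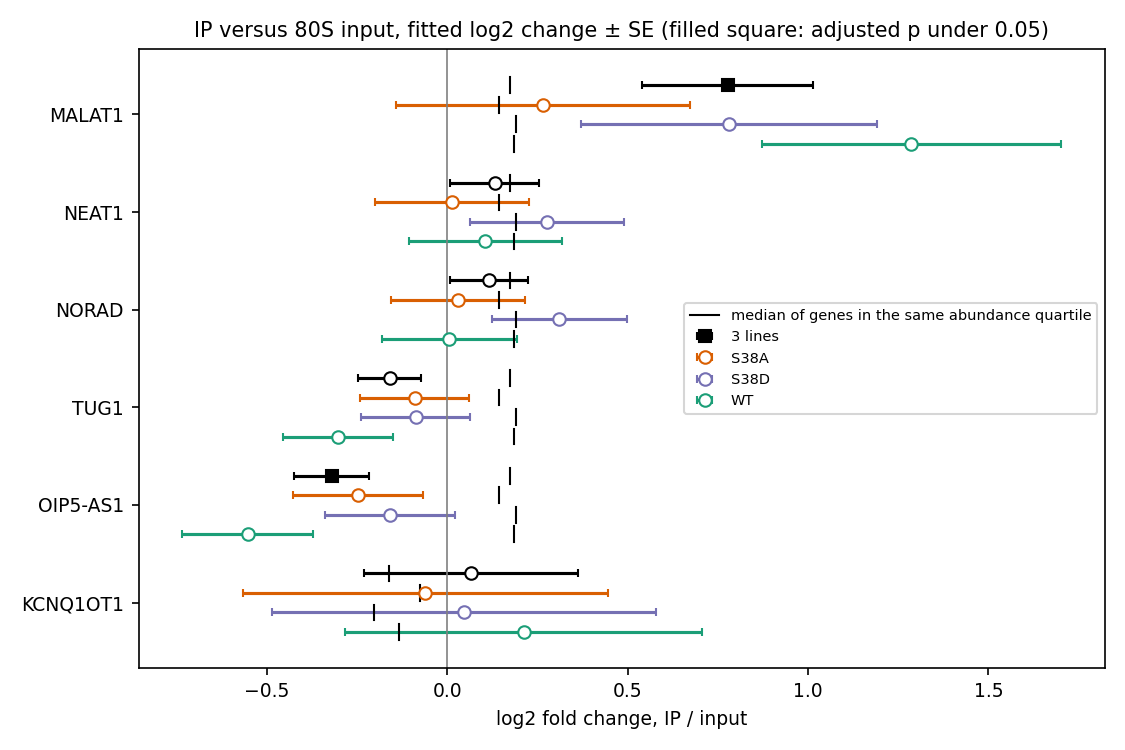
Fitted log2 change of IP over input (x axis, ± SE) over the 3 lines and in each line, with filled squares for adjusted p under 0.05 and black ticks for the median of genes in the same abundance quartile. MALAT1 and OIP5-AS1 pass over the 3 lines, and no RNA passes in a single line.

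Whether recovery in IP depended on the RPL12 form was asked with interaction contrasts, the difference between lines in log2 IP over input. For MALAT1 the difference was -1.02 (SE 0.58) for S38A versus WT, -0.51 (SE 0.58) for S38D versus WT and 0.52 (SE 0.58) for S38D versus S38A, each with edgeR adjusted p = 1. The 15 differences of the other RNAs lay between -0.27 and 0.40, with SE of 0.21 to 0.74. Those of KCNQ1OT1 against WT moved most with the WT IP libraries: S38A versus WT was -0.91 without the first and 1.23 without the second, and S38D versus WT -0.80 and 1.33 (edgeR adjusted p of 0.487 to 1). The contrasts share lines, so they are not independent. Each contrast had 0 of 6 past the edgeR threshold, and 0 in DESeq2, in voom and with the fraction as a block. Each of these fits called 0% of all genes in each contrast. At unadjusted p under 0.05 there were 0 of 6. The share of all genes there was 2.32% for S38A versus WT, 0.792% for S38D versus WT and 0.644% for S38D versus S38A. The MALAT1 difference for S38A versus WT amounts to 0.492-fold and was not detectable against this spread. Its signs against WT turned with 1 library. Without the first WT IP library, that of 865 CPM, S38A versus WT was 0.10 and S38D versus WT 0.62 (SE 0.34 each, edgeR adjusted p = 1). Without the second, they were -1.66 (SE 0.33, adjusted p = 0.0275, in a fit that called 1.67% of all genes) and -1.15 (SE 0.33, adjusted p = 0.288). In a fit chosen after seeing the data, the 865 CPM library and its input were left out and the fraction was a block. S38D then exceeded S38A by 0.50, against 0.49 (SE 0.37) in the block fit of all 12 libraries. That contrast holds no WT library, so the estimate hardly moved and the 0.50 is no separate support for a difference.

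The inputs show whether these RNAs took different shares of the 80S fraction itself in the 3 lines. TUG1 was at 446 ± 40.5 CPM in S38A, 387 ± 12.8 in S38D and 315 ± 3.63 in WT input (SD, n = 2 each), with no overlap between lines. S38A exceeded WT by 0.52 on the log2 scale (SE 0.14, edgeR adjusted p = 0.183) and S38D exceeded WT by 0.32 (SE 0.14, adjusted p = 1). Neither passed in edgeR, and S38A versus WT passed in DESeq2 (adjusted p = 0.0122). The IP libraries kept this order, at 419 ± 16.8, 364 ± 21.2 and 255 ± 13.3 CPM (SD, n = 2 each), again with no overlap. Of all genes, 10.5% had 3 lines without overlap in input, 9.88% in IP and 2.11% in both with the same order, patterns counted after the TUG1 values were seen.

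NEAT1 was lowest in S38A. The S38A inputs averaged 1163 ± 70.6 CPM, against 1600.5 ± 208 in S38D and 1621 ± 107 in WT (SD, n = 2 each), and all 4 S38A libraries, IP and input, lay below the other 8, as for 1.28% of all genes, a pattern also counted after these values were seen. The log2 difference, S38A over WT, was -0.46 (SE 0.17, edgeR adjusted p = 0.263), which did not pass but did in DESeq2 (adjusted p = 0.042). S38D versus S38A gave 0.46 (SE 0.17, edgeR adjusted p = 0.959).

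The other 4 RNAs differed less or less evenly between inputs. MALAT1 in S38A and S38D exceeded WT by 0.35 and 0.37 (SE 0.21 each), and NORAD in S38A differed from WT by -0.20 (SE 0.16). OIP5-AS1 was the steadiest, with differences of -0.08 to 0.06 among the 3 lines (SE 0.15 each). KCNQ1OT1 in S38A differed from WT by -0.61 (SE 0.36), on 19 to 32 counts a library.

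By edgeR, 0 of 6 RNAs passed in each of the 3 input comparisons, in which 0%, 0.00598% and 0.00598% of all genes were called for S38A versus WT, S38D versus WT and S38D versus S38A. For S38A versus WT, 2 were at unadjusted p under 0.05 (NEAT1 and TUG1), as were 15.3% of all genes. The same RNAs passed in DESeq2, which called 2.5% of all genes, and 0 passed in voom, which called 0%. In S38D versus WT 1 (TUG1) and in S38D versus S38A 1 (NEAT1) were at unadjusted p under 0.05, against 3.32% and 3.77% of all genes, and 0 passed in DESeq2 or voom. Libraries did not overlap between S38A and WT inputs for 1 RNA upward and 3 downward, where 21.9% and 25.8% of all genes showed such gaps. For S38D versus WT the gaps were 2 upward (MALAT1, TUG1) and 1 downward (KCNQ1OT1), against 16% and 18%. For S38D versus S38A they were 2 upward (NEAT1, NORAD) and 1 downward (TUG1), against 16.4% and 16%. Scaling by spike-in RNA moved the median of all genes to -0.44 for S38A versus WT and -0.83 for S38D versus WT, while the WT inputs held unlike shares of spike-in RNA (0.116% and 0.484%). Under that scaling TUG1 was at 0.10 for S38A versus WT and turned negative, to -0.54, for S38D versus WT. MALAT1 turned negative in both, at -0.10 and -0.57, and NEAT1 in S38A versus WT kept its sign, at -0.87. Relative to those medians, TUG1 was at 0.54 for S38A versus WT and 0.29 for S38D versus WT, against 0.54 and 0.32 with TMM. NEAT1 in S38A versus WT was at -0.43, against -0.44 with TMM. Subtracting the median removes most of what the scaling changes, so this likeness is largely built in.

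**Figure D5:**
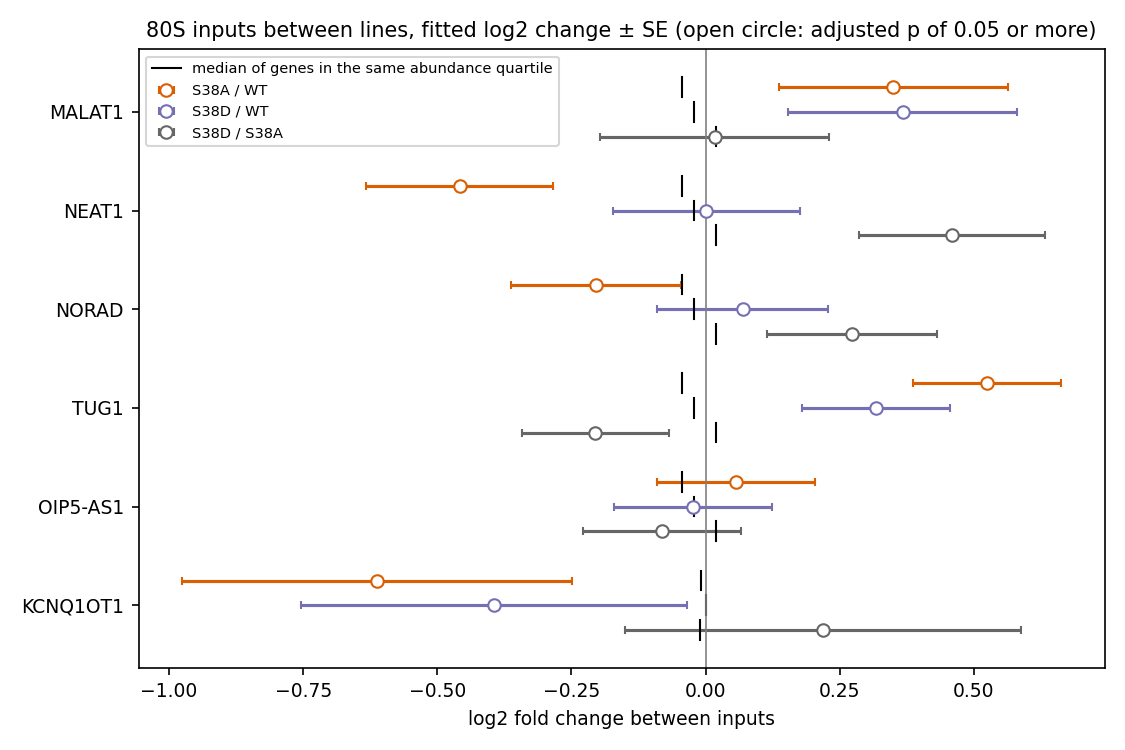
Fitted log2 change between 80S inputs (x axis, ± SE) for S38A over WT, S38D over WT and S38D over S38A, with black ticks for the median of genes in the same abundance quartile. No RNA passes; in S38A over WT, TUG1 lies at 0.52 and NEAT1 at -0.46, on opposite sides of their ticks.

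The order of the 6 groups differed from RNA to RNA. Gaps between neighbouring groups are common with 2 libraries a group: 64.7% of all genes had at least 1, 29.5% at least 2 and 9.57% at least 3. For MALAT1 it was WT IP, S38D IP, S38A IP, S38D input, S38A input and WT input from high to low, and only S38D IP and S38A IP were neighbours without overlap. For NEAT1 a single gap, between S38D input and S38A IP, separated neighbours. For TUG1 both S38A groups came first and both WT groups last, with 3 gaps, between S38A IP and S38D input, between S38D IP and WT input, and between WT input and WT IP. NORAD had 1 gap, between S38D IP at the top and S38D input. For OIP5-AS1 the 3 inputs came first, with 2 gaps, below S38D input and between S38A IP and WT IP, and KCNQ1OT1 had 1 gap, between WT input and S38D IP.

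Likeness of pattern was measured as the root mean square difference of log2 CPM over the 12 libraries, each gene centred on its own mean. NEAT1 and NORAD were each other's nearest among the 6 RNAs, at 0.171, and TUG1 and OIP5-AS1 likewise, at 0.227. MALAT1 was at 0.54 from its nearest, NORAD. Among 13099 other genes of at least 5 CPM, the nearest to NEAT1 was ENSG00000126945.8, at 0.084, and the nearest to NORAD was ENSG00000101190.8, at 0.085, beside median distances of 0.416 and 0.36. The nearest gene to MALAT1 lay at 0.193, which is more than for each other RNA except KCNQ1OT1, at 0.266. Distances grow with a gene's own spread, and the SD of centred log2 CPM was 0.57 for MALAT1 and 0.22 for NORAD.

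Strand matters for 3 of the 6 RNAs. In the RefSeq table OIP5-AS1 overlaps OIP5, KCNQ1OT1 overlaps KCNQ1 and MALAT1 overlaps the antisense RNA TALAM1 and the small RNA MASCRNA. NEAT1 overlaps MIR612, and NORAD and TUG1 overlap no other gene there. The sources used here do not give the strand setting of the authors' counting, so reads of OIP5-AS1 and OIP5, of KCNQ1OT1 and KCNQ1, and of MALAT1 and TALAM1 may be mixed, and the part of such reads in these results was not tested.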

How the data were processed

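For each of 12 libraries the deposited table holds whole-number read counts as the authors made them, over 57820 Ensembl identifiers plus 92 for ERCC RNAs. The submitters' processing notes name STAR 2.4.2a, bcl2fastq 2.16.0.10, DESeq2 and build hg19. The sources used here do not give the read counter, its strand setting or its annotation. The members and lists were chosen with earlier results of these data known. Members were named by the rule that chose them, and all 6 symbols were found in RefSeq's GRCh38.p14 table, used for biotype and overlaps alone. That table matched 0 of the files' identifiers, so the lists of partner genes and the tagged gene were not analysed here.

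Library sizes left out ERCC counts. The main test was edgeR 4.0.16 in R 4.3.3, with filterByExpr (minimum count 10), TMM scaling, glmQLFit and glmQLFTest, with Benjamini-Hochberg adjustment over all genes of a comparison (10 comparisons) and a threshold of 0.05. IP comparisons came from 1 fit of 12 libraries (16920 genes), and input comparisons from 1 fit of 6 (16728 genes). SE is the size of the log2 change over the square root of F. A prior count of 2 entered log2 CPM. Named genes were the 6 members and, for likeness, the nearest gene to each of the 2 members of highest CPM. Input and IP of one number share a fraction per the labels' protocols, and their deviations correlated across genes at 0.644 in S38A, 0.543 in S38D and 0.281 in WT, so the fraction was a block in an alternative fit with 3 residual degrees of freedom. No 2 libraries were identical, and replicates differed by 5.39 to 16.0 in chi-square per degree of freedom. Other alternatives were RLE factors, total counts, DESeq2 1.42.0, voom in limma 3.58.1, other filters, fits of fewer or more libraries, inputs scaled by spike-in RNA and omission of each library.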

Additional observations from a re-analysis of the deposited data

How the results depend on the processing

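Over the 10 comparisons, 1072 single-RNA values stayed on their side of the threshold, 32 came to pass, 14 ceased to and 0 passed with the opposite sign. The cause was not tested. This tally includes the fit chosen after seeing the data, given below, and several of the 32 come from that fit. Over the 3 lines, 0 to 2 of 6 RNAs passed with 1 library left out, against 2 with all, and 22.9% to 32.9% of all genes passed there. In WT the 0 became 2 with total counts (17.3% of all genes called), 1 with DESeq2 (15.5%), 2 unfiltered (7.61%), 1 at mean CPM of 10 or more (18.4%), 3 with the replicate block (28.5%) and 0 to 2 with 1 library left out. In S38D the 0 became 1 with no filter (4.64%), 1 with the replicate block (20%), 1 with the 4 S38D libraries alone (9.83%) and 0 to 1 with 1 library left out. The S38A versus WT difference in recovery gave 0 to 1 with 1 library left out. For S38A versus WT inputs, DESeq2 gave 2 (2.5%), no filter 1 (3.02%), and omission of 1 library 0 to 1 (TUG1 without the first S38A input, adjusted p = 0.0473, 2.86%). Chosen after seeing the data, the replicate block with the first WT fraction left out gave 2 in WT, 2 in S38A, 3 in S38D and 1 for S38D versus S38A, with 2 residual degrees of freedom; it called 29.2%, 34.9%, 36.9% and 2.32% of all genes there. The replicate block changed no call besides those given; in the inputs, whose numbers share no stated source and whose deviations correlated at -0.066 to 0.217, it called 0 of 6. A library left alone in its group was assumed to vary like the others. Depth limits KCNQ1OT1, which mean CPM of at least 10 leaves out.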
